A study of Homo sapiens with 17 samples.

Results

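Transcripts of 9 genes were followed across 17 RNA libraries of K562, an established line grown from human chronic myeloid leukaemia that has erythroid features. NONO, SFPQ, PSPC1, NPM1, NCL, XRCC5, XRCC6 and SSB encode proteins of the nucleus and cytoplasm that bind nucleic acids or their ends. RNASEH1 encodes the nuclease through which many antisense oligonucleotides act. These 9 genes were chosen by name for their known part in binding or using such oligonucleotides. They are 9 of the 57638 genes to which the quantified transcripts belong. All 17 libraries came from K562 cells electroporated with CRISPR plasmids meant to activate the gene named in the label, an antisense oligonucleotide was added to all of them afterwards, and processing followed on day 6. The GOLGA8N group held GOLGA8N 1, GOLGA8N 2 and 23-GOLGA8N, the LAPTM4B group LAPTM4B 1, LAPTM4B 2 and 22-LAPTM4B, and the control group Neg, RFP and GFP, whose labels name no human gene. The other 8 labels had 1 library each, namely 20-ARSF, 21-CTPS2, TTR, TRPC5OS, E7, ADORA2A, UBE2V1 and COL6A6. The 4 labels with a number before the gene (20- to 23-) were also set against the 13 without one. Neither the oligonucleotide nor the guide sequences are named in the labels, which also do not say what the number prefixes, Neg or E7 stand for. There were no cells without an oligonucleotide. The values therefore describe RNA levels under treatment, and neither protein levels nor a response to the oligonucleotide.

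An antisense oligonucleotide with a DNA gap pairs with its target RNA, and RNase H1 cuts the RNA strand of that hybrid. Oligonucleotides with a phosphorothioate backbone also bind many cellular proteins, which can move them between compartments or compete with RNase H1 for them. NONO, SFPQ and PSPC1 form the DBHS family, RNA-binding proteins that dimerise with each other and sit on the long noncoding RNA NEAT1 in nuclear bodies called paraspeckles. NPM1 (nucleophosmin) and NCL (nucleolin) are abundant nucleolar proteins of ribosome assembly. XRCC6 and XRCC5 (Ku70 and Ku80) form the Ku ring that grips DNA ends in end joining, and SSB (La) holds the uridine-rich ends of RNA polymerase III transcripts.

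Reads came from 3′ tag libraries, so they lie near the ends of polyadenylated transcripts and their number does not grow with transcript length. Depth was uneven, between 569057 estimated reads (GFP) and 4236396 (20-ARSF), with a median of 3222049. GFP was the shallowest by far, since the next lowest library, 23-GOLGA8N, held 2252097. A floor of 3 reads corresponded to 5.45 CPM (reads of a gene scaled by all reads assigned to genes) in GFP and 0.733 CPM in 20-ARSF. These floors cover counting error alone. The targeted gene did not stand out in the GOLGA8N or LAPTM4B libraries. GOLGA8N reached at most 0.318 CPM among libraries labelled for it and 0.249 CPM elsewhere, and LAPTM4B had 166 to 222 CPM in LAPTM4B libraries and 156 to 306 CPM elsewhere. GOLGA8N has near-identical copies in the genome, so its count is uncertain. The 13 erythroid markers were all detected, with sums of 6262 to 12199 CPM, while CD3E, CD2, CD7 and CD8A of 8 T cell markers and MS4A1 and CD79B of 6 B cell markers were at 0 in every library.

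Because a 3′ tag names a transcript by its end, the ends of some models that collected reads are shown first. Each line gives the last 30 bases of a GENCODE 29 transcript model (GRCh38), 5′ to 3′ in the strand of the RNA, with the polyadenylation signals AATAAA or ATTAAA in capitals. The models shown have a deposited length equal to the annotated one. SFPQ-201, NCL-201 and SSB-201, which led their genes in reads, do not, and their ends are not shown.
NONO-202: acctATTAAAatacattttaagccttttaa
SFPQ-210: ttctcgttAATAAAggcattatcctaatta
PSPC1-201: ccaAATAAAtctttttcatcttgaaaaaaa
NPM1-212: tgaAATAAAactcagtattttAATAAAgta
NPM1-203: gtgtaattactgtaattttttcccctattg
NPM1-201: aaatgttccattagacctcctatctgccta
XRCC5-209: accccatacaagtttataaagagtcattgt
XRCC6-203: aagagccctaagtttgtactatatactgtt
The search covered the strand of the RNA alone. Of 83129 protein-coding transcripts, 38.4% held either motif in this window. NPM1-212 held AATAAA at a pair of places, and the ends of NPM1-203, NPM1-201, XRCC5-209 and XRCC6-203 held neither motif in these 30 bases.

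The 9 genes spanned a wide range of levels. NPM1 led with 2637 ± 227 CPM (SD, n = 17), followed by NCL with 496 ± 52.7 CPM, SFPQ with 315 ± 30.1 CPM and XRCC6 with 264 ± 54.8 CPM. XRCC5 had 223 ± 37.4 CPM, NONO 217 ± 33.2 CPM and SSB 191 ± 44.2 CPM, and RNASEH1 with 51.5 ± 8.88 CPM and PSPC1 with 22.4 ± 6.99 CPM were the lowest. NPM1 exceeded NCL, NCL exceeded SFPQ, SSB exceeded RNASEH1 and RNASEH1 exceeded PSPC1 in 17 of 17 libraries. The middle of the order was not resolved, since XRCC5 lay above NONO in only 9 of 17 libraries and NONO above SSB in 12 of 17. On the deposited TPM scale, which divides by model length, NPM1 again led with a mean of 1780 TPM and PSPC1 was again lowest with 6.85 TPM, but XRCC5 moved up to the second place with 123 TPM. That scale rests on which model took the reads, and a short model of XRCC5 took most of them.

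The sum of the 9 genes stayed within 4121 to 5035 CPM, a coefficient of variation of 5.41% over 17 libraries, and NPM1 made up 51.5% to 63.8% of it. Single genes were less even. Over the 16 libraries other than GFP, the coefficient of variation was 21.9% for SSB and 19.4% for XRCC6, where genes within 1.5 times their level had medians of 15.5% (596 genes) and 14.8% (408 genes). Of those like genes, 84.4% varied less than SSB and 77.7% varied less than XRCC6. RNASEH1 stood at the other end, with 16.6% against a median of 23.5% among 1728 genes of its level, of which 7.70% varied less. SFPQ with 9.25% and NCL with 9.20% also lay below the medians of their level, 14.4% and 13.8%.

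**Figure D1:**
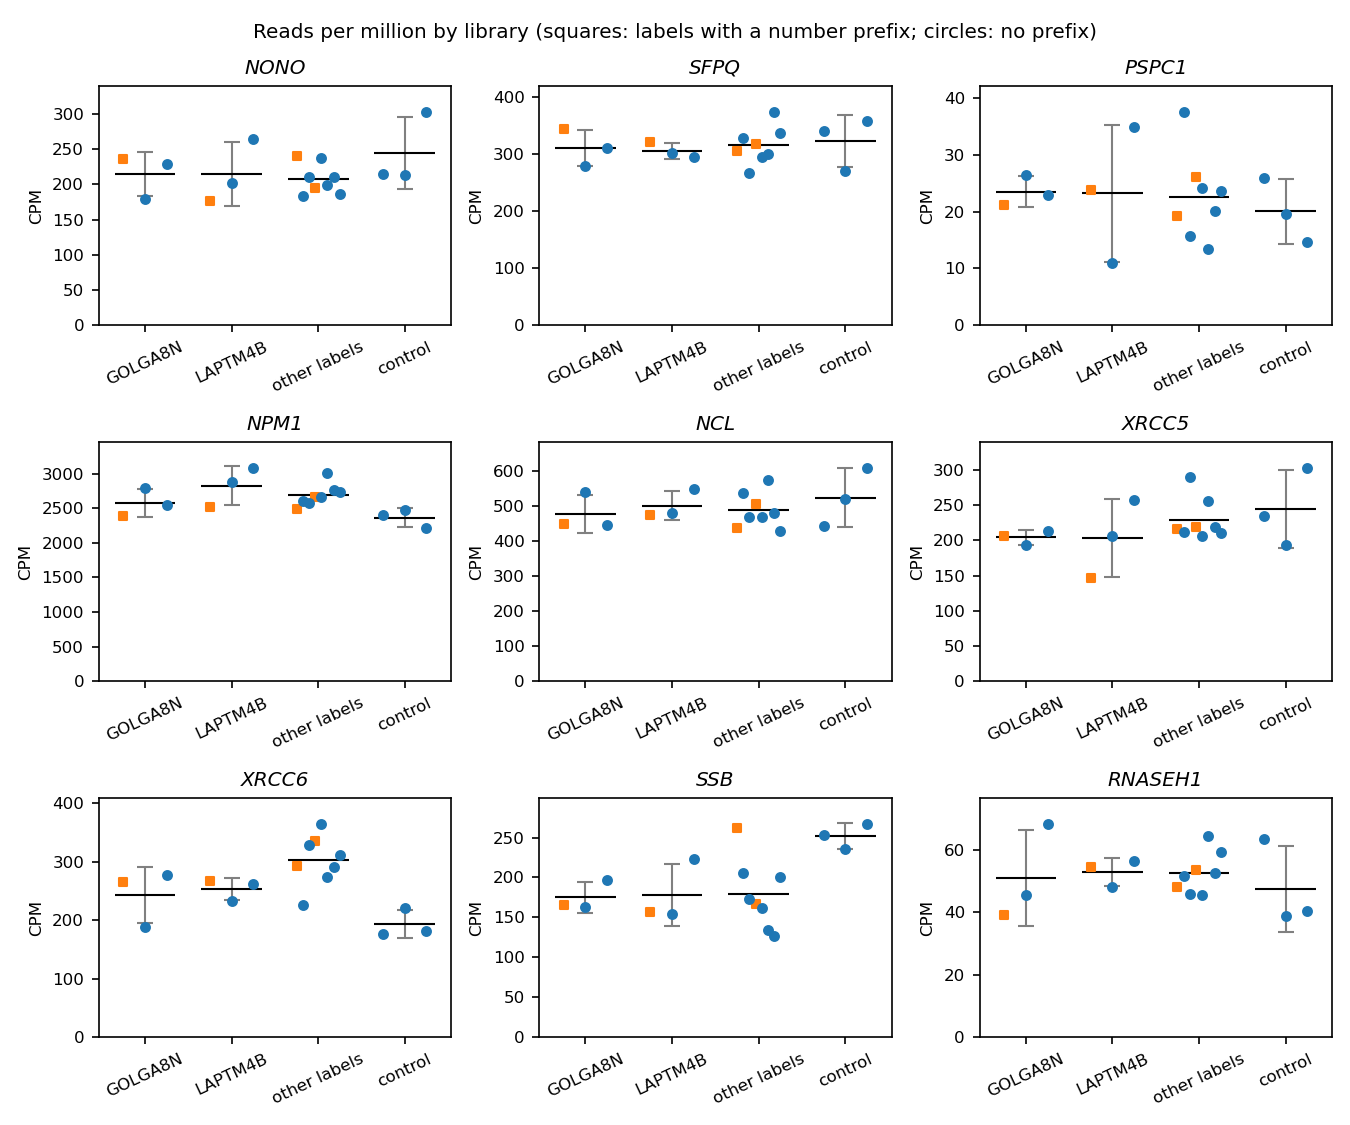
CPM of each of the 9 genes in every library, with 1 panel per gene and a linear axis starting at 0. Columns are the GOLGA8N, LAPTM4B, other and control labels, squares mark labels with a number prefix, black lines are means, and grey bars show ± SD of the groups of 3. The control points of SSB (236 to 268 CPM) lie above every GOLGA8N and LAPTM4B point, and those of XRCC6 (176 to 219.9 CPM) lie below every LAPTM4B point. Of all genes, 11.8% had no overlap with control for GOLGA8N and 10.1% for LAPTM4B.

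None of the 9 genes passed an adjusted p of 0.05 (edgeR quasi-likelihood test, Benjamini-Hochberg adjustment over all genes tested) in any of the comparisons made, and few genes did at all. For GOLGA8N against control, 0 of 9 were called, beside 0.0168% of 11916 genes, and 2 of 9 had an unadjusted p under 0.05, beside 5.68%. For LAPTM4B against control, 0 of 9 were called, beside 0% of all genes, and again 2 of 9 had an unadjusted p under 0.05, beside 3.94%. Between GOLGA8N and LAPTM4B, 0 of 9 were called, beside 0.00839%, and 0 of 9 reached an unadjusted p under 0.05, beside 2.04%. For prefixed against unprefixed labels the counts were also 0 of 9 called, beside 0.284% of 12319 genes, and 0 of 9 at an unadjusted p under 0.05, beside 9.36%. DESeq2 and limma-voom likewise called 0 of 9 in these 4 comparisons. These tests leave room for differences, since the 95% interval of NONO for GOLGA8N against control, for example, ran from -0.44 to 0.39 on the log2 scale. The labels do not say that libraries of a group came from separate cultures, so these p-values measure the spread between libraries, which may be technical.

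The control libraries lay at the low end of the series for XRCC6 and NPM1 and at the high end for SSB, though in each case 1 other library lay inside their range. Both gene groups were read against the same 3 control libraries. A further comparison, added after the data had been seen, therefore set the other 14 libraries against control. In it, 0 of 9 genes were called by edgeR, beside 0.0305% of 13132 genes, and 3 of 9 had an unadjusted p under 0.05, beside 8.87%. These 3 are XRCC6, NPM1 and SSB, for which the comparison was made, so the count is a description and no support. DESeq2 called XRCC6 and NPM1 there, among 59 called of 13132 genes. By limma-voom 0 of 9 were called, beside 135 of 13132 genes. The comparison pools different plasmids, the GOLGA8N and LAPTM4B ones included.

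**Figure D2:**
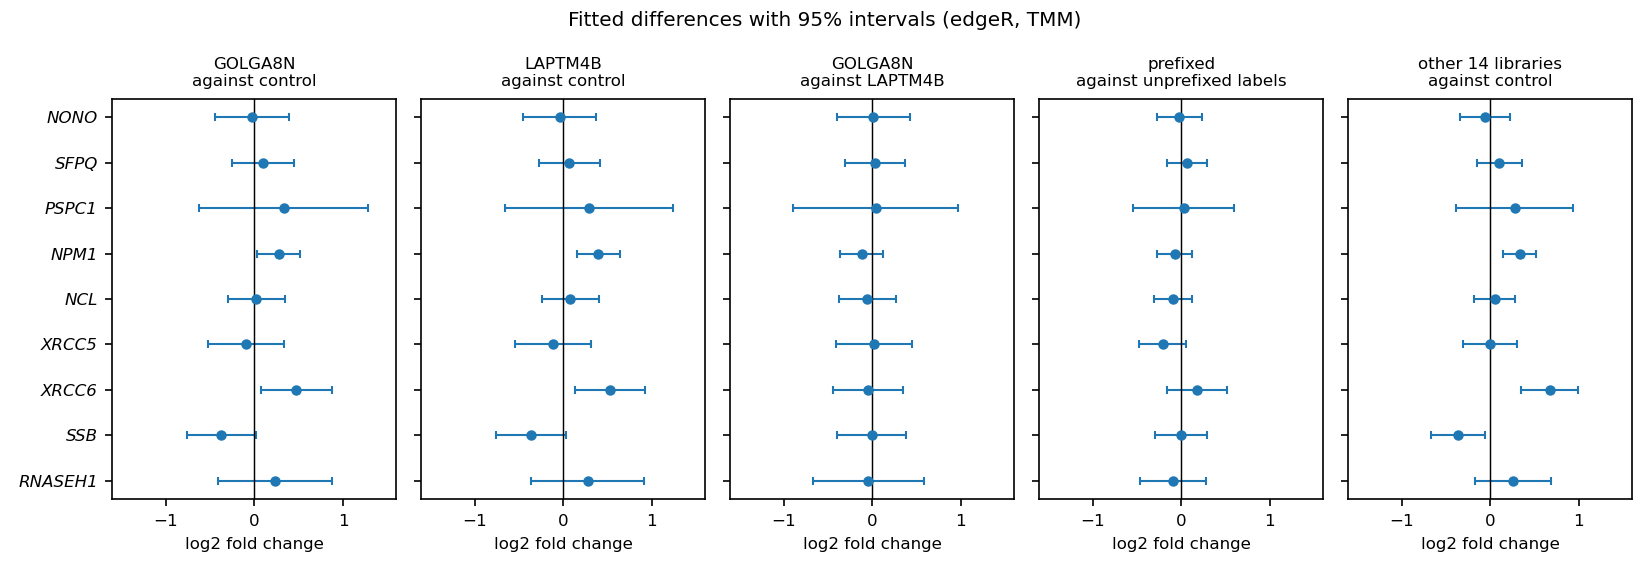
Log2 fold changes of the 9 genes (edgeR, TMM scaling) with 95% intervals in each comparison, with 0 as a vertical line. XRCC6 and NPM1 lie right of 0 and SSB left of it in the panels against control, and all 9 lie within 0.12 of 0 between GOLGA8N and LAPTM4B.

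NONO, which pairs with SFPQ in the DBHS family, did not separate the groups. NONO (chrX:71283192-71301168, + strand) had 179 CPM in GOLGA8N 1, 228 CPM in GOLGA8N 2 and 236 CPM in 23-GOLGA8N, 202, 265 and 176 CPM in LAPTM4B 1, LAPTM4B 2 and 22-LAPTM4B, and 216, 214 and 304 CPM in Neg, RFP and GFP. GFP was the highest of all 17 libraries and the groups overlapped. Against control, GOLGA8N differed by a log2 fold change of -0.03 ± 0.20 (SE) and LAPTM4B by -0.04. The 4 prefixed libraries ran from 176 to 241 CPM, within the range of the 13 others, 179 to 304 CPM.

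SFPQ, a splicing factor as well as a paraspeckle protein, was among the steadiest of the 9 genes in total level. SFPQ (chr1:35176378-35193148, - strand) had 279.8, 310.4 and 344 CPM in GOLGA8N libraries, 302, 296 and 322 CPM in LAPTM4B libraries, and 342, 272 and 358 CPM in Neg, RFP and GFP. The ranges overlapped, and UBE2V1 was the highest library with 375 CPM. Against control, the fitted log2 fold changes were 0.10 ± 0.17 for GOLGA8N and 0.07 for LAPTM4B. These signs differ from those of the CPM means, which are not rescaled by TMM factors and weight all libraries equally.

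The reads of SFPQ were split between models in a way that followed the number prefix. The coding model SFPQ-201 held 84.0% of SFPQ reads over all libraries, and 8 models that end about position 35176380, led by SFPQ-210 shown above, held 15.4%. All of these are annotated as processed transcripts or as targets of nonsense-mediated decay, and SFPQ-210 is 434 bases long. They took 18.9% in 20-ARSF, 21.5% in 21-CTPS2, 21.5% in 22-LAPTM4B and 21.1% in 23-GOLGA8N, against 7.12% to 16.2% (median 14.1%) in the 13 unprefixed libraries. All 4 prefixed libraries thus lay above all 13 others, with means of 20.7 ± 1.24% and 13.5 ± 2.50% (SD). The difference of 7.21 percentage points had an exact two-sided permutation p of 0.00042, the smallest that 2380 arrangements can give, among 10 shares compared. Across all genes with several ends, an edgeR test of end use gave SFPQ a p of 0.00246 and an adjusted p of 0.241, rank 28 of 2834, so SFPQ was not called there, where 0.0353% of genes were. Leaving out 1 prefixed library changed that p. It was 0.0382 without 20-ARSF, 0.0697 without 21-CTPS2, 0.01 without 22-LAPTM4B and 0.0614 without 23-GOLGA8N, at ranks of 63 to 287. A further end at position 35177209, with 0.563% of SFPQ reads, entered the test without 20-ARSF, 21-CTPS2 or 23-GOLGA8N. Its part in those p-values was not tested. The downstream end differed by 0.61 on the log2 scale relative to the gene, and by 0.58 to 0.65 in these runs. Among the genes whose most-read end could be compared, 0.077% of 2598 had groups that did not overlap.

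The same shares by gene, which add nothing to the test above, were as follows. 23-GOLGA8N had 21.1%, against 14.1% in GOLGA8N 1 and 10.5% in GOLGA8N 2, and 22-LAPTM4B had 21.5%, against 15.0% in LAPTM4B 1 and 13.9% in LAPTM4B 2. In level, the downstream models had 67.0 ± 5.18 CPM in the prefixed libraries and 42.6 ± 10.3 CPM in the unprefixed ones. Those levels overlapped slightly, at 60.33 to 72.4 CPM and 18.98 to 60.71 CPM. SFPQ-201 had 254 ± 12.96 CPM in prefixed and 268 ± 27.1 CPM in unprefixed libraries. Leaving out each prefixed or control library in turn kept the difference in share between 6.95 and 7.82 points. Ribosomal protein genes also moved with the prefix, with 24.6% to 25.3% of reads in prefixed and 21.7% to 24.5% in unprefixed libraries. Its part in the result was not tested. The quantifier divides reads among these overlapping models, so the share of any 1 of them is less certain than that of the group.

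PSPC1, the third DBHS protein, was the lowest of the 9 genes and the least precisely measured. PSPC1 (chr13:19674752-19783019, - strand) had 26.4, 22.9 and 21.2 CPM in GOLGA8N libraries, 10.9, 34.9 and 23.7 CPM in LAPTM4B libraries, and 26.0, 19.6 and 14.5 CPM in Neg, RFP and GFP. The LAPTM4B libraries alone spanned nearly the whole range of the series, whose highest value was 37.6 CPM in TTR. Fitted log2 fold changes of 0.33 for GOLGA8N and 0.29 for LAPTM4B against control came with adjusted p-values of 0.995 and 1.0. The GFP value rests on 8 reads, none of them on the coding model PSPC1-201, which held 69.5% of PSPC1 reads over all libraries.

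NEAT1, the RNA scaffold that the DBHS proteins coat, was called with the prefix although the 3 proteins were not. NEAT1 had 295, 236, 254 and 336 CPM in 20-ARSF, 21-CTPS2, 22-LAPTM4B and 23-GOLGA8N, against 161 to 232 CPM in the 13 unprefixed libraries. The prefixed libraries all lay above the others, with means of 279.9 ± 44.6 CPM and 187 ± 22.4 CPM. NEAT1 rose with the prefix by 0.59 ± 0.12 on the log2 scale, with an adjusted p of 0.0191 (edgeR), where 0.284% of 12319 genes were called. Leaving out 1 prefixed library at a time left 2 to 29 genes called. Whether NEAT1 stayed among them was not recorded. How many of all genes separated the prefixed libraries by CPM is not reported here. NEAT1 by CPM and the downstream SFPQ models by share of SFPQ reads, though not by CPM, therefore separated the same 4 libraries from the rest. What the prefix marks in the labels is unknown. Of 16 other paraspeckle proteins, 0 were called in any comparison. For GOLGA8N against control they had a median log2 fold change of 0.05, where all genes tested had 0.01, and the lowest p belonged to CPSF6, a cleavage factor subunit, with -0.76 ± 0.31 (adjusted p = 0.837).

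**Figure D3:**
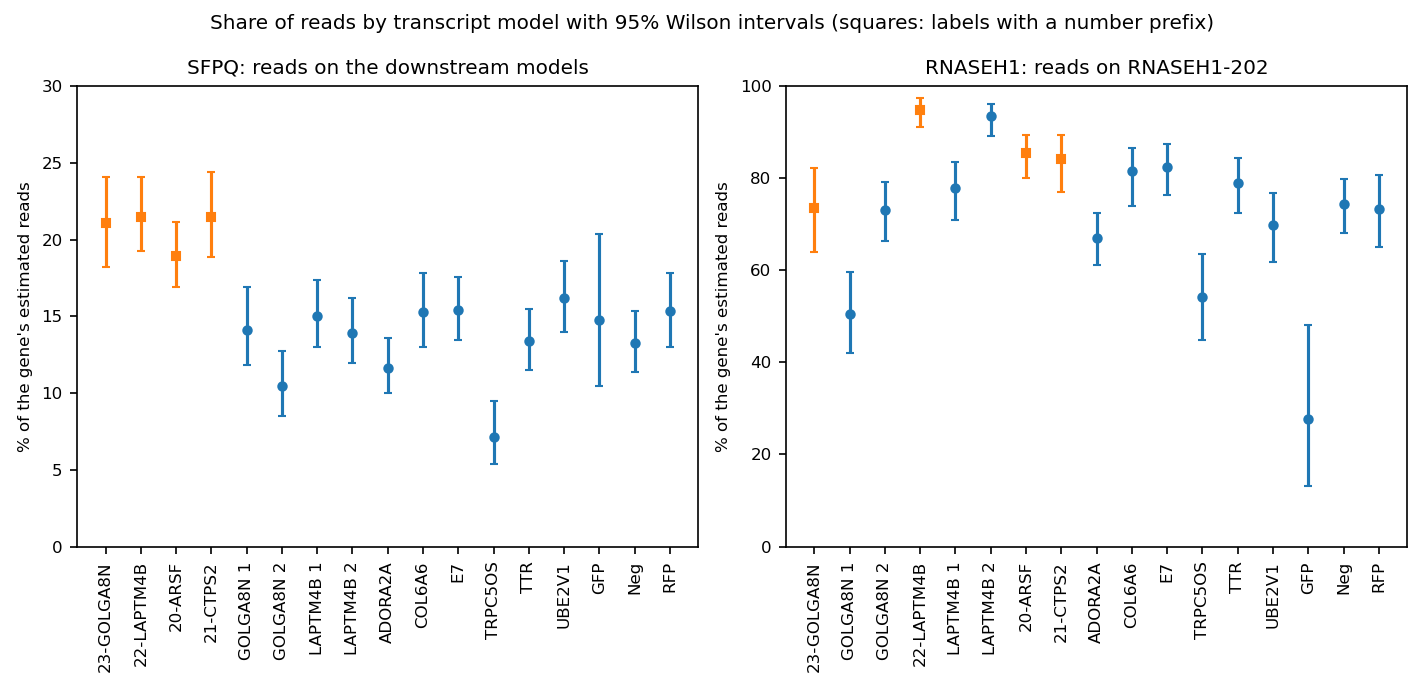
Share of SFPQ reads on the downstream models (left) and of RNASEH1 reads on RNASEH1-202 (right), in % of the gene's estimated reads by library, with 95% Wilson intervals that cover counting error only. Squares mark the 4 labels with a number prefix, which hold 18.9% to 21.5% of SFPQ reads on the downstream models, against 7.12% to 16.2% in the other 13.

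NPM1, the nucleolar chaperone and the most abundant of the 9, was higher in most libraries than in control. NPM1 (chr5:171387116-171411137, + strand) had 2798, 2546 and 2396 CPM in GOLGA8N libraries, 2877, 3089 and 2522 CPM in LAPTM4B libraries, and 2403.5, 2481 and 2209 CPM in Neg, RFP and GFP. The LAPTM4B values did not overlap the control values, as was so for 10.1% of all genes, while 23-GOLGA8N fell inside the control range. The log2 fold change was 0.39 ± 0.12 for LAPTM4B (unadjusted p = 0.00309, adjusted p = 1.0, edgeR) and 0.27 ± 0.12 for GOLGA8N (unadjusted p = 0.0299, adjusted p = 0.848, edgeR). Coding transcripts alone gave 0.61 for LAPTM4B and 0.66 for GOLGA8N, and the 14 libraries of every other label in place of the controls gave 0.15 for LAPTM4B, none of them called. Over the other 14 libraries NPM1 averaged 2696 ± 199 CPM, with 13 of 14 above the highest control, and 2364 ± 140 CPM in control. How many of all genes had 13 of 14 above was not counted. The fitted log2 fold change, with TMM scaling, was 0.33 ± 0.09 (adjusted p = 0.192 by edgeR and 0.0282 by DESeq2). It is larger than that of the CPM means, which are not rescaled by TMM factors. Set against the 14 libraries of every other label in place of the 3 controls, the GOLGA8N difference was -0.01 in NPM1 and -0.13 in XRCC6.

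Most NPM1 reads were assigned to NPM1-212, a short model annotated as a retained intron, which held 86.3% of them (81.9% to 89.7% over libraries). Its last 433 bases are identical to those of the coding model NPM1-202, so the assignment does not separate the coding end from the noncoding model. The 3′ end of both lies at position 171410884, 253 bases before the end of NPM1-201, which held 1.28%. NPM1-203, which ends earlier at position 171407125 and encodes a form of 259 residues where NPM1-201 encodes 294, held 12.4% of the reads. Its share was 14.7 ± 2.43% in GOLGA8N, 12.9 ± 0.61% in LAPTM4B and 11.3 ± 1.73% in control libraries (SD, n = 3 each), and the groups overlapped. The 45 annotated NPM1 pseudogenes together held 0.0313% as many reads as NPM1 itself.

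NCL, a nucleolar RNA-binding protein, showed no difference beyond its spread. NCL (chr2:231453531-231483641, - strand) had 542, 446 and 448 CPM in GOLGA8N libraries, 482, 551 and 474 CPM in LAPTM4B libraries, and 443, 521 and 611 CPM in Neg, RFP and GFP. GFP was again the highest library. The log2 fold change was 0.02 for GOLGA8N and 0.08 for LAPTM4B against control. The ratio of NPM1 to NCL was 5.16 to 5.71 in GOLGA8N, 5.32 to 5.97 in LAPTM4B and 3.62 to 5.43 in control libraries, with the lowest value in GFP. Of 25 other nucleolar and ribosome assembly genes, 0 were called in any comparison. FBL, the RNA methyltransferase fibrillarin, had the lowest p for both groups against control, with log2 fold changes of 0.46 ± 0.17 for GOLGA8N and 0.46 ± 0.17 for LAPTM4B (adjusted p = 0.774 and 1.0, edgeR). With the prefix, 18 of 25 were lower, with a median of -0.17, where all genes tested had a median of -0.02.

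The Ku subunits had unlike profiles across the libraries. XRCC6 (chr22:41621119-41664048, + strand) had 188, 276 and 264 CPM in GOLGA8N libraries, 232, 261 and 266 CPM in LAPTM4B libraries, and 176, 219.9 and 182 CPM in Neg, RFP and GFP. The LAPTM4B libraries lay above all 3 controls, an absence of overlap that 10.1% of all genes had, and GOLGA8N 1 fell inside the control range. The log2 fold change was 0.48 ± 0.19 for GOLGA8N (unadjusted p = 0.0218, adjusted p = 0.820, edgeR) and 0.53 ± 0.19 for LAPTM4B (unadjusted p = 0.0120, adjusted p = 1.0, edgeR). The highest libraries belonged to other labels, with 365 CPM in E7 and 335 CPM in 20-ARSF. Over the other 14 libraries XRCC6 averaged 279 ± 46.7 CPM, against 192 ± 24.0 CPM in control, and 13 of 14 exceeded the highest control. How many of all genes did so was not counted. The fitted difference, with TMM scaling, was 1.59-fold, a log2 fold change of 0.67 ± 0.16 (95% interval 0.35 to 0.99, unadjusted p = 0.000132, adjusted p = 0.108 by edgeR, rank 16 of 13132). It is larger than the ratio of the CPM means, which are not rescaled by TMM factors. DESeq2 gave an adjusted p of 0.00757. Without 1 control library at a time the log2 fold change was 0.61 without Neg, 0.81 without RFP and 0.64 without GFP, none of them called. All reads of XRCC6 went to the coding model XRCC6-203, so no division between its models bears on the value.

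XRCC5, the partner of XRCC6 in the Ku ring, had 193, 214 and 206 CPM in GOLGA8N libraries, 206, 258 and 146 CPM in LAPTM4B libraries, and 236, 194 and 304 CPM in Neg, RFP and GFP. XRCC5 (chr2:216107464-216206303, + strand) was lowest in 22-LAPTM4B and highest in GFP of all 17 libraries. Its log2 fold change was -0.09 for GOLGA8N and -0.11 for LAPTM4B against control, and -0.21 ± 0.13 for the prefixed labels (unadjusted p = 0.117). The ratio of XRCC6 to XRCC5 was 0.975 to 1.29 in GOLGA8N, 1.01 to 1.82 in LAPTM4B and 0.599 to 1.13 in control libraries. The lowest ratio was that of GFP and the highest that of 22-LAPTM4B. The levels of the pair were nearly unrelated over the 16 libraries other than GFP, with Pearson's r of 0.18, given as a description. XRCC5-209, a retained-intron model whose last 100 bases lie within XRCC5-201, held 64.5% of XRCC5 reads (59.1% to 71.8%), and XRCC5-201 held 35.3%.

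**Figure D4:**
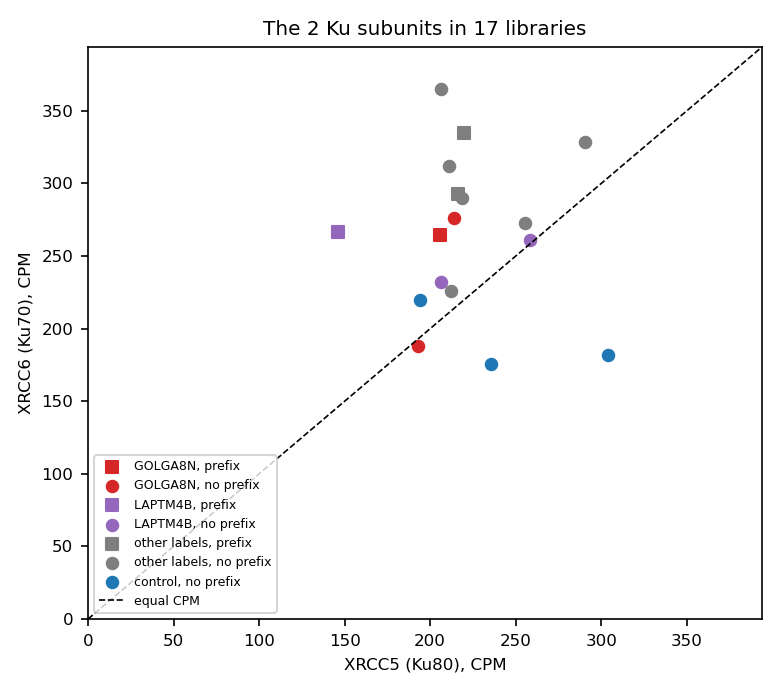
CPM of XRCC6 against CPM of XRCC5 in the 17 libraries, both axes linear from 0, with a dashed line of equal CPM. GFP and Neg lie below the line with ratios of 0.599 and 0.746, and 22-LAPTM4B lies farthest above it with 1.82.

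Ku acts with further end-joining factors, and 7 of the 9 listed ones had enough reads to be tested. For GOLGA8N against control 3 were higher and 4 lower, with a median log2 fold change of -0.00027, and 0 were called in any comparison. PAXX, a scaffold of the end-joining complex, had the lowest p with the prefix, at -0.38 ± 0.17 (adjusted p = 0.476, edgeR).

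Against control, SSB differed in the opposite direction to XRCC6. Over the 16 libraries other than GFP, Pearson's r of the pair was -0.31, given as a description. SSB (chr2:169791933-169812064, + strand) had 163, 197 and 166 CPM in GOLGA8N libraries, 154, 224 and 157 CPM in LAPTM4B libraries, and 253, 236 and 268 CPM in Neg, RFP and GFP. All GOLGA8N and LAPTM4B values lay below all 3 controls, an absence of overlap that 11.8% of all genes had for GOLGA8N and 10.1% for LAPTM4B. The log2 fold change was -0.37 ± 0.19 for GOLGA8N (unadjusted p = 0.0629) and -0.36 ± 0.19 for LAPTM4B (unadjusted p = 0.0674), and neither passed a threshold. Over the other 14 libraries SSB averaged 178 ± 36.3 CPM, against 252 ± 15.9 CPM in control. Of those 14, 0 lay above the highest control and 1, 21-CTPS2 with 261 CPM, above the control median. The fit gave -0.36 ± 0.15 (unadjusted p = 0.0201, adjusted p = 0.462, edgeR). UBE2V1 was lowest with 127 CPM. METTL5, a neighbour on the opposite strand that ends toward SSB, had 202 ± 10.9, 191 ± 26.8 and 197 ± 9.0 CPM in GOLGA8N, LAPTM4B and control libraries and did not follow it.

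Absence of overlap with control was rare when all other libraries were counted, 1.07% of 13132 genes, and 0 of 9 genes had it. Beside these differences, ribosomal protein genes took 23.3% to 25.2% of reads in GOLGA8N, 24.2% to 25.3% in LAPTM4B and 21.7% to 23.2% in control libraries. The erythroid markers were higher for 12 of 13 genes in GOLGA8N against control, with a median log2 fold change of 0.36, and for 11 of 13 in LAPTM4B against control, with a median of 0.16. Both move with the control libraries as XRCC6, NPM1 and SSB do, and their part in these differences was not tested.

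La has relatives and clients in the RNA polymerase III system. Of 15 such genes tested for GOLGA8N against control, 9 were higher and 6 lower, with a median log2 fold change of 0.08, and 0 were called. LARP4B, a La-related protein that binds messenger RNA, had 0.65 ± 0.28 (adjusted p = 0.848, edgeR). For LAPTM4B against control 11 were higher and 4 lower, and 0 were called.

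RNASEH1, the enzyme that cuts the target RNA in an oligonucleotide hybrid, was low and even. RNASEH1 (chr2:3544793-3558616, - strand) had 45.4, 68.4 and 39.1 CPM in GOLGA8N libraries, 47.9, 56.3 and 54.5 CPM in LAPTM4B libraries, and 63.4, 38.8 and 40.3 CPM in Neg, RFP and GFP. The groups overlapped, with GOLGA8N 2 highest and RFP lowest in the series. The log2 fold change was 0.23 for GOLGA8N (unadjusted p = 0.459) and 0.28 for LAPTM4B (unadjusted p = 0.377) against control, and -0.09 for the prefixed labels.

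Which RNASEH1 model collected the reads did vary. RNASEH1-202, annotated as a target of nonsense-mediated decay, held 76.8% of RNASEH1 reads and RNASEH1-201, the coding model, held 23.2%. The share of RNASEH1-202 was 50.6%, 73.1% and 73.6% in GOLGA8N libraries, 77.9%, 93.5% and 94.9% in LAPTM4B libraries, and 74.5%, 73.4% and 27.6% in Neg, RFP and GFP. The LAPTM4B libraries lay above all GOLGA8N and control libraries, as the most-read end did, in either direction, for 9.5% of genes between GOLGA8N and LAPTM4B and for 9.04% between LAPTM4B and control. The GFP share rests on 22.2 estimated reads. Counting coding models alone turned the RNASEH1 difference for LAPTM4B against control to -1.46 ± 0.64, with an adjusted p of 1.0. The quantifier divides reads between the models, so the coding and noncoding shares are uncertain.

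Of 12 other genes of RNase H and RNA-DNA hybrid metabolism, 7 were higher and 5 lower for GOLGA8N against control, 5 higher and 7 lower for LAPTM4B against control, and 0 were called in either. The lowest p for GOLGA8N belonged to TOP1, DNA topoisomerase I, with 0.43 ± 0.21 (adjusted p = 0.875, edgeR). With the prefix, SSBP1, the mitochondrial single-strand binding protein, had -0.35 ± 0.11 (adjusted p = 0.217) and POLRMT, the mitochondrial RNA polymerase, -0.82 ± 0.27 (adjusted p = 0.263). Of 25 further oligonucleotide-binding proteins, 19 were higher and 6 lower for GOLGA8N against control, with a median of 0.11, and 17 were higher and 8 lower for LAPTM4B against control, with a median of 0.09. ANXA2, an annexin, had 0.47 ± 0.21 for GOLGA8N (adjusted p = 0.850), and SUB1, a coactivator that binds single-stranded DNA, had 0.30 ± 0.16 for LAPTM4B (adjusted p = 1.0). Of 12 argonaute and exonuclease genes, 8 were higher and 4 lower for GOLGA8N, 6 and 6 for LAPTM4B, and 0 were called.

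The 9 genes did not vary together. Over the 16 libraries other than GFP, Pearson's r of log2(CPM + 1) had a median of 0.0114 among their 36 pairs, and 19 pairs were positive. The highest was 0.626 for the nucleolar pair NPM1 and NCL, and the lowest was -0.411 for NPM1 and SSB. NONO and SFPQ, which form dimers as proteins, had -0.083. These are descriptions over libraries that share a total, so values of abundant genes are not independent of each other.

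Among 4992 genes at 20 CPM or more, the pattern most like that of SSB was TOP2B, DNA topoisomerase II beta, with r of 0.855, then ZFR with 0.820. XRCC6 was most like CAPNS1, the calpain small subunit, with 0.810, and SF3B2, a splicing factor subunit, with 0.771. NPM1 was most like RBM3, a cold-inducible RNA-binding protein, with 0.844, and IMP4, a ribosome assembly factor, with 0.827. NCL followed ZDHHC7 with 0.830 and PEBP1 with 0.820, and XRCC5 followed SEPT5-GP1BB with 0.843 and NUDT1 with 0.822. The highest r was lower for the rest. For NONO it was ZNF655 at 0.807, then SUMO2 at 0.787, which is above the second value of XRCC6. RNASEH1 had SGSM3 at 0.759 and TEAD2 at 0.755. PSPC1 had PPP6C and HMGN4 at 0.749 each, and SFPQ had IMMP1L at 0.712 and MIEF1 at 0.685. Each value is the highest of many over 16 libraries and is a description only.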

How the data were processed

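K562 cells were profiled with 3′ tag libraries primed with oligo-dT carrying 12 bp molecular identifiers, per the labels' protocols. Each of the authors' files holds estimated counts and TPM for 228297 transcripts, with the column names of Salmon per the file headers. TPM were deposited as that quantifier gave them, and CPM were derived here from the estimated counts. STAR 0.7.2, Salmon 0.7.2, featureCounts and UMI-tools appear in the submitters' processing notes, as do GRCh38 and hg38, and the shared version number makes that of STAR doubtful. Collapsing of reads by identifier before counting is not stated in the labels.

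Genes were formed by adding the estimated counts of their GENCODE 29 transcripts, for the 205336 transcripts matched by identifier. The 22961 others, with 3.32% to 3.60% of reads, stayed out of totals and tests. Gene sums were rounded for edgeR 4.0.16 under R 4.3.3 (TMM, filterByExpr, robust quasi-likelihood fit, adjusted p under 0.05). GOLGA8N, LAPTM4B and control libraries shared 1 fit of 9 libraries, and the prefix was tested over 17. The SE is the log2 fold change over the square root of F, and 95% intervals use the t distribution of the fit. Transcript shares were compared with exact permutation tests (scipy 1.17.1) and, across genes, with diffSpliceDGE of edgeR. Alternatives were DESeq2 1.42.0, limma-voom (limma 3.58.1), other scalings, filters, library sets and leaving out each library. The fits were checked on simulated counts.

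The 9 genes and the lists were chosen with earlier results of these data known. The genes named besides them were those called and otherwise at most 3 with the lowest p per list and comparison, plus for each of the 9 the 2 genes with the highest r. Coding models only, the other 14 libraries against control, the permutation tests of shares and the end-use tests were added after the data were seen. Strand was not stated, so overlapping genes are uncertain. The labels do not say that libraries came from separate cultures. Of 27043 genes with reads, those below filterByExpr were not tested. Some items are not reported here.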

Additional observations from a re-analysis of the deposited data

Results flagged for a closer look

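Among 14 sets of 4 prefixed libraries examined for 1 value far from the others, 2 were past the limit, and chance alone gives about 1 in 20. SSB had 261.5 CPM in 21-CTPS2, against 157 to 167 CPM in the other prefixed libraries, with a gap of 0.901 of the range. NPM1-203 held 15.73% of NPM1 reads in 23-GOLGA8N, against 11.6% to 12.3% in the other prefixed libraries, with a gap of 0.834 of the range.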

How the results depend on the processing

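Of the fitted values of the 9 genes, 0 passed the adjusted threshold under any alternative run for GOLGA8N against control, LAPTM4B against control, GOLGA8N against LAPTM4B or prefixed against unprefixed labels. XRCC6 and NPM1 passed it for the other 14 libraries against control with DESeq2 (0.63 and 0.28). The values below changed sign against the fits reported, and the cause was not tested except where fewer transcripts or libraries were used by construction. XRCC6 and NPM1 kept their direction in both groups against control under the alternatives run, except with all 14 libraries of other labels as control (XRCC6 in both groups, NPM1 in GOLGA8N), and SSB kept its direction against control. The fits rest on few libraries a group, and GFP adds few reads.

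Log2 fold changes that turned sign were as follows. With RLE scaling NCL had -0.011 (GOLGA8N against control) and -0.00047 (the other 14 against control), and with DESeq2 -0.0038 and with the stricter filter -0.014 (both GOLGA8N against control). With limma-voom NONO had 0.046 (GOLGA8N against control), 0.033 (LAPTM4B against control) and 0.016 (the other 14 against control), XRCC5 0.065 (the other 14 against control), and SSB 0.0051 (GOLGA8N against LAPTM4B) and 0.0022 (prefixed against unprefixed). With the prefix as a term NONO had 0.0011 and XRCC5 0.015 (GOLGA8N against control). With all 14 libraries of other labels as control, GOLGA8N gave NONO 0.016, NPM1 -0.014, NCL -0.028, XRCC6 -0.13 and RNASEH1 -0.00067, and LAPTM4B gave NONO 0.014, SFPQ -0.017 and XRCC6 -0.056. With coding transcripts only, NONO had 3.2e-05 and XRCC5 0.13 (GOLGA8N against control), XRCC5 0.11 and RNASEH1 -1.46 (LAPTM4B against control), NPM1 0.056 and RNASEH1 1.57 (GOLGA8N against LAPTM4B), SFPQ -0.059, PSPC1 -0.11 and NPM1 0.0049 (prefixed against unprefixed), and XRCC5 0.20 and RNASEH1 -0.36 (the other 14 against control). With no filter on low counts NONO had 0.00042 (LAPTM4B against control), NONO -0.0098 and XRCC5 -0.0016 (GOLGA8N against LAPTM4B) and SSB 0.0085 (prefixed against unprefixed). With unprefixed labels only NONO had 0.073 and XRCC5 0.069 (LAPTM4B against control), NONO -0.16, XRCC5 -0.16 and RNASEH1 0.15 (GOLGA8N against LAPTM4B) and XRCC5 0.057 (the other 14 against control). With 17 libraries in the fit NONO had -0.0027 (GOLGA8N against LAPTM4B). For prefixed against unprefixed, SSB had 0.012 with both genes as terms, PSPC1 -0.050 with the libraries of both genes only, and NONO 0.0047, PSPC1 -0.011 and SSB 0.024 with GFP left out.

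Leaving out 1 library at a time gave the ranges below, over the 9 libraries of the groups for the first 3 comparisons, over the 4 prefixed libraries for the log2 fold changes with the prefix (the shares also over the 3 controls), and over the 3 controls for the other 14 libraries against control. For GOLGA8N against control they were NONO -0.092 to 0.13, NCL -0.081 to 0.12, XRCC5 -0.22 to 0.061 and RNASEH1 -0.029 to 0.53. For LAPTM4B against control they were NONO -0.18 to 0.12, SFPQ -0.023 to 0.13, PSPC1 -0.076 to 0.64, NCL -0.013 to 0.18 and XRCC5 -0.28 to 0.069. For GOLGA8N against LAPTM4B they were NONO -0.095 to 0.18, SFPQ -0.045 to 0.090, PSPC1 -0.30 to 0.43, XRCC5 -0.16 to 0.21, XRCC6 -0.15 to 0.091, SSB -0.10 to 0.17 and RNASEH1 -0.31 to 0.11. For prefixed against unprefixed they were NONO -0.081 to 0.043, PSPC1 -0.051 to 0.11 and SSB -0.18 to 0.060, and in percentage points the PSPC1-201 share -8.26 to 1.10 and the NPM1-203 share -0.18 to 1.2. For the other 14 against control they were NONO -0.13 to 0.11, NCL -0.054 to 0.17 and XRCC5 -0.13 to 0.17.

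The number of genes called over the whole table moved more. For GOLGA8N against control it was 2, and 12 with DESeq2, 0 with limma-voom, 42 without a filter, 1 with the stricter filter, 19 with 17 libraries, 8 with the prefix as a term, 7 with unprefixed labels, 4 with 14 libraries of other labels as control, and 1 to 6 leaving out each library. For LAPTM4B against control it was 0, and 3 with DESeq2, 25 without a filter, 4 with 17 libraries, 2 with unprefixed labels and 0 to 1 leaving out each library. For GOLGA8N against LAPTM4B it was 1, and 3 with DESeq2, 0 with limma-voom, 9 without a filter, 4 with 17 libraries, 2 with unprefixed labels, 3 with unmatched transcripts kept and 1 to 3 leaving out each library. For the prefix it was 35, and 110 with DESeq2, 55 with limma-voom, 557 without a filter, 16 with both genes as terms, 73 in the libraries of both genes only, 23 with unmatched transcripts kept, 46 without GFP and 2 to 29 leaving out each of the 4 prefixed libraries. For the other 14 against control it was 4, and 1 with RLE scaling, 59 with DESeq2, 135 with limma-voom, 12 with unprefixed labels and 0 to 3 leaving out each control library.

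Libraries titled 1 and 2 of GOLGA8N and LAPTM4B share only a number, with a correlation of 0.0988 between their deviations across genes, which does not pair them. A replicate block on them called 2 genes and no block 2 genes. In that subset NONO had -0.16 with the block and -0.16 without it, XRCC5 -0.15 and -0.16, and RNASEH1 0.13 and 0.15.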
